A study of Mus musculus with 2 samples.

Results

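Tcf7l2 and 9 other genes of the Wnt pathway were measured in mouse microglia, the resident macrophages of the brain, by droplet single-cell RNA sequencing with 10x Genomics 3′ chemistry. The 10 genes, of 32285 in the feature table, were taken by their symbols and were chosen because Tcf7l2 was already known to differ between the treatments of these data. They are Tcf7l2, Tcf4, Ctnnb1, Apc, Axin1, Axin2, Gsk3b, Lrp5, Lrp6 and Tle3, all found in the table. Differences between treatments in these 10 genes are therefore given as a description, without a test.

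Tamoxifen was compared with its oil vehicle in mice 12 weeks old that all carried 1 copy of the Cx3cr1CreERT2(Litt) allele, a tamoxifen-inducible Cre recombinase at the locus of the fractalkine receptor gene Cx3cr1. One set of mice had received tamoxifen (TAM) for 4 weeks and the other set the oil vehicle (Oil). CD11b+ CD45+ cells that lacked Ly6G and CD206 were taken from the perfused brains by flow sorting and pooled as 5 TAM and 5 oil hashtags, antibody-borne barcodes that tell the samples of a pool apart. The labels do not say that a hashtag is 1 mouse, so p-values reflect variation among hashtags, part of which may be technical, and mice without the Cre allele were not analysed here.

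The Wnt pathway controls the stability of beta-catenin. Without a Wnt ligand, a destruction complex built on the scaffolds Axin and Apc phosphorylates beta-catenin through the kinases CK1 and GSK3, and beta-catenin is degraded. When a ligand binds a Frizzled receptor together with the co-receptors Lrp5 or Lrp6, the complex is inhibited, and beta-catenin enters the nucleus and binds TCF/LEF factors, where it displaces Groucho/TLE corepressors. In the brain, Wnt signalling is best known in the vasculature, in neural progenitors and in the oligodendrocyte lineage, where Tcf7l2 marks newly formed oligodendrocytes. The symbol Tcf4 is a frequent source of confusion: the mouse gene Tcf4 encodes the E protein E2-2, a basic helix-loop-helix factor, whereas the TCF-4 protein of the Wnt literature is the product of Tcf7l2.

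The promoter windows of Tcf7l2, the gene that differed between treatments, and of Axin2, a classical direct target of beta-catenin and TCF that was nearly undetected, are shown so that the factor and a target of it can be set side by side. Each holds the 250 bases before a RefSeq transcription start on GRCm38.p6, 5′ to 3′ on the plus strand. Capitals mark a match to the TCF motif, searched on both strands as CTTTG followed by AA, AT, TA or TT. The first window of Tcf7l2 is chr19:55741560-55741809, the second, before an internal start, chr19:55895071-55895320, and that of Axin2 is chr11:108920099-108920348.
Tcf7l2, first start: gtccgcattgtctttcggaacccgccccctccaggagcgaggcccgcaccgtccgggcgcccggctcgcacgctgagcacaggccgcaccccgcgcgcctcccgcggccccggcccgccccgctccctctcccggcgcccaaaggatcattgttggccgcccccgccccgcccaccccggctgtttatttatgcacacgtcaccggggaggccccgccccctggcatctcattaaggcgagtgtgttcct
Tcf7l2, internal start: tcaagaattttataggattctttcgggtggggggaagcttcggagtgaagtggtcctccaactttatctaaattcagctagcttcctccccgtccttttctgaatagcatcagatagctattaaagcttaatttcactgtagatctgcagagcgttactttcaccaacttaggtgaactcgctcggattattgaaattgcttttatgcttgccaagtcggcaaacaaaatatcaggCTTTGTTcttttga
Axin2: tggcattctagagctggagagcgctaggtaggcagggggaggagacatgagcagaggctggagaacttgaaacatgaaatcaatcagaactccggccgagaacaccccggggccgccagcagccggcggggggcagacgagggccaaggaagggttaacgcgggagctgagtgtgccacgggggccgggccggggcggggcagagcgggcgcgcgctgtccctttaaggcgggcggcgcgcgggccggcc
The window of the internal start of Tcf7l2 held 1 match, CTTTGTT, 14 bases before the start, and the other windows shown held none. Of the 32851 windows of that length in the RefSeq table, 14.8% held a match. Windows were present for 5 of the 10 genes, 7 windows in all, and 1 of these had a match. A match describes the letters only, and 3′ counts do not tell which start a transcript came from.

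After hashtag assignment and filters, 7903 cells were kept, of which 7551 fell into 6 of 8 clusters called microglia-like, in which 97.7% to 99.7% of cells held the median one of 14 microglial markers. Each hashtag gave 589 to 903 of these cells and 2963128 to 4795880 UMIs, distinct molecular tags that count the copies made by amplification once. The median depth was 4882 to 5088 UMIs per cell. The mean log2 level of 22 immediate early genes, which respond within minutes to stimuli such as tissue dissociation, was 4.48 to 5.47 in TAM and 5.57 to 7.37 in oil hashtags, and it was lowest in TAM5 and in Oil5 within their treatments. Xist and Y-linked RNA separated 6 hashtags, called female here, from TAM1, TAM2, Oil1 and Oil2, called male. Within a treatment, sex and hashtag number therefore cannot be told apart. Levels are given as UMIs per 1000000 (CPM), scaled between hashtags by the TMM method unless stated otherwise. The CPM of Axin2, Sp5, Malat1 and the markers of other cell types are raw shares of all UMIs, without that scaling. Values are compared between samples for 1 gene at a time, since capture differs between genes.

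Tcf7l2 was higher in every TAM hashtag than in any oil hashtag, and its fitted mean was 22.1% higher in TAM. Tcf7l2 (ENSMUSG00000024985; GRCm38 chr19:55741820-55933654, plus strand), the TCF/LEF factor through which beta-catenin acts on target genes, was at 187, 200.04, 199, 190 and 191 CPM in TAM1 to TAM5, against 151, 171, 154, 162 and 154 CPM in Oil1 to Oil5. The treatments did not overlap, with the lowest TAM hashtag, TAM1, above the highest oil hashtag, Oil2. The means were 193 ± 5.72 CPM in TAM and 158 ± 8.21 CPM in oil hashtags (SD, n = 5 each), a log2 fold change of 0.29 ± 0.04 (SE), with a 95% interval of 0.19 to 0.38. These levels rest on 3830 UMIs in TAM and 2991 UMIs in oil hashtags. In the fit over all genes, 4.49% of 11172 tested genes were called at an adjusted p below 0.05 (edgeR quasi-likelihood test, Benjamini-Hochberg), 5.34% had treatments that did not overlap, and 2.14% were without overlap and higher in TAM. Among the 9 members that passed the filter on low counts, Tcf7l2 alone met either criterion, as its choice had fixed. Of the called genes 36.5% were higher in TAM, and 58.4% with scaling by library size alone, a scaling that moved the median of all genes by 0.04 on the log2 scale.

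**Figure D1:**
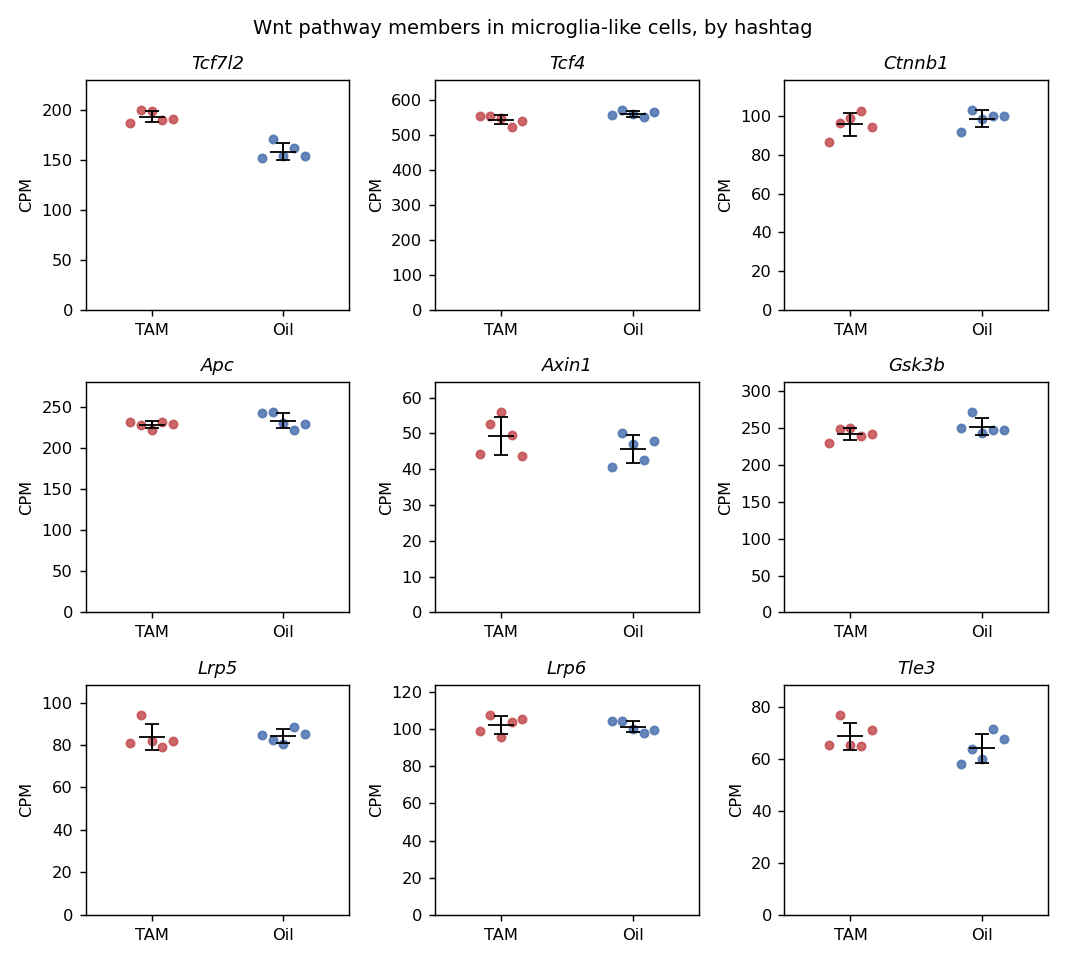
Levels of 9 Wnt pathway genes in microglia-like cells, in UMIs per 1000000 after TMM scaling, with 1 point per hashtag and the mean and SD in black (TAM left, oil right, n = 5 each, axes from 0). Tcf7l2 sits at 187 to 200.04 in TAM and 151 to 171 in oil hashtags, and the points of the other 8 genes overlap between treatments.

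The other 8 measured members had log2 fold changes of −0.06 to 0.11, with 95% intervals that all held 0. Across the 9 members the median log2 fold was −0.01, beside −0.00014 over all tested genes. The highest upper bounds of these 8 intervals, 0.28 for Axin1 and 0.24 for Tle3, lay below the fold of Tcf7l2 and above the lower bound of its interval.

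At the membrane, Lrp5 and Lrp6 encode the co-receptors that, with Frizzled, take up the Wnt signal. Lrp5 (chr19:3584828-3686564, minus strand) was at 79.1 to 94.3 CPM in TAM and 80.5 to 88.7 CPM in oil hashtags (log2 fold −0.01 ± 0.06). Lrp6 (chr6:134446476-134566965, minus strand) was at 95.8 to 108 CPM in TAM and 98.1 to 104 CPM in oil hashtags (0.01 ± 0.05). For both co-receptors the oil range lay inside the TAM range.

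In the destruction complex, Apc and Axin1 are the scaffolds and Gsk3b is the kinase that marks beta-catenin for degradation. Apc (chr18:34220924-34322552, plus strand) averaged 229 ± 3.84 CPM in TAM and 234 ± 9.36 CPM in oil hashtags (log2 fold −0.03 ± 0.04). Gsk3b (chr16:38089001-38246084, plus strand) averaged 242 ± 8.18 CPM in TAM and 252 ± 11.1 CPM in oil hashtags (−0.06 ± 0.04). Axin1 (chr17:26138688-26195811, plus strand), the rarest member that could be fitted, averaged 49.2 ± 5.33 CPM in TAM and 45.7 ± 3.90 CPM in oil hashtags (0.11 ± 0.08). Its 95% interval of −0.07 to 0.28 is the widest of the members.

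Ctnnb1 (chr9:120929216-120960507, plus strand), which encodes beta-catenin itself, averaged 95.7 ± 5.98 CPM in TAM and 98.7 ± 4.24 CPM in oil hashtags (log2 fold −0.04 ± 0.06). RNA levels do not report the stability of the protein, the step at which the pathway acts. Tle3 (chr9:61372366-61418497, plus strand), a Groucho corepressor that binds TCF factors, averaged 68.7 ± 5.33 CPM in TAM and 64.2 ± 5.56 CPM in oil hashtags (0.09 ± 0.07). Tcf4, the E protein (chr18:69343356-69689079, plus strand), was at 554, 555, 548, 522 and 540.2 CPM in TAM1 to TAM5, against 557, 572, 559, 551 and 565 CPM in Oil1 to Oil5. TAM1 and TAM2 lay within the oil range and the other TAM hashtags below it. The log2 fold of Tcf4 was −0.04 ± 0.03, with a 95% interval of −0.12 to 0.03 that lay below that of Tcf7l2.

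**Figure D2:**
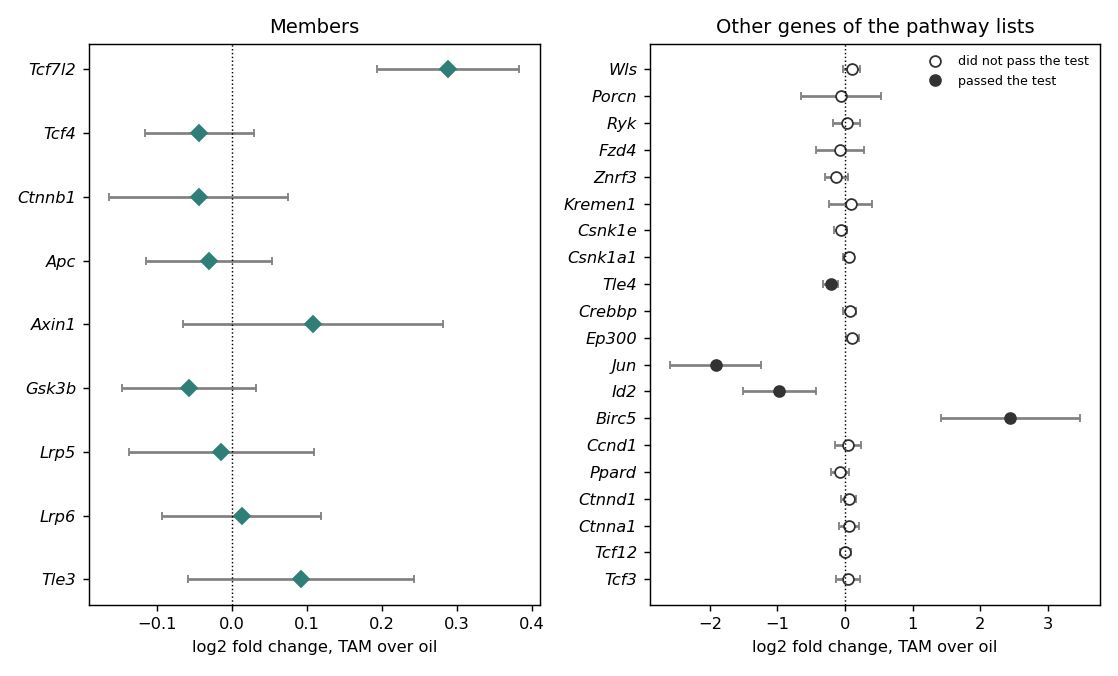
Log2 fold changes, TAM over oil, with 95% intervals for the 9 measured members (left, diamonds, no test) and for genes of the wider pathway and E protein lists (right, circles filled where the edgeR test over all genes was passed). The interval of Tcf7l2 runs from 0.19 to 0.38 and those of the other 8 members cross 0; on the right, Jun, Id2 and Tle4 lie below 0 and Birc5 above it.

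Axin2 (chr11:108920349-108950783, plus strand), the feedback scaffold induced by beta-catenin and TCF in many tissues, was almost absent. It had 4 UMIs in TAM and 3 UMIs in oil hashtags, or 0.203 CPM (exact Poisson 95% interval 0.0554 to 0.521) and 0.156 CPM (0.0321 to 0.455). These intervals cover counting error only, and a difference between treatments was not detectable at this depth. Some other genes that beta-catenin and TCF switch on as feedback or direct targets, named here after their values were seen, were also rare. Notum, a secreted Wnt deacylase, had 13 UMIs among all 38923189 of the microglia-like cells. The stem cell receptor Lgr5 had 5, the ubiquitin ligase Rnf43 had 2, and the Dishevelled binders Nkd1 and Nkd2 had 1 each. The transcription factor Sp5 had 0, which allows up to 3 UMIs, or 0.0771 CPM, an upper bound set otherwise than the exact intervals of Axin2. Znrf3, a ligase related to Rnf43 that removes Frizzled from the membrane, differed from these with 1643 UMIs. Of 17 further genes listed as Wnt targets in other tissues, Sp5 among them, 5 had no UMI. Others on that list were not rare: Jun had 27030 UMIs, Ccnd1 had 4111, Ppard had 2689, Id2 had 1549 and Myc had 667.

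Tcf7l2 held nearly all UMIs of its family, in counts that also depend on how well each gene was captured. It had 6821 UMIs, Tcf7l1 had 17, Lef1 had 1 and Tcf7 had 0. Of the 10 Frizzled genes, Fzd4 had 485 UMIs, Fzd7 had 245, Fzd8 had 95 and Fzd5 had 90, and each of the other 6 had 7 or fewer. Among ligands, Wnt5b had 109 UMIs, Wnt4 had 92 and Wnt2b had 45, while the remaining Wnt genes had 5 or fewer each. The secreted inhibitors Dkk1, Wif1, Sfrp1 and Sfrp2 had 0 UMIs.

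**Figure D3:**
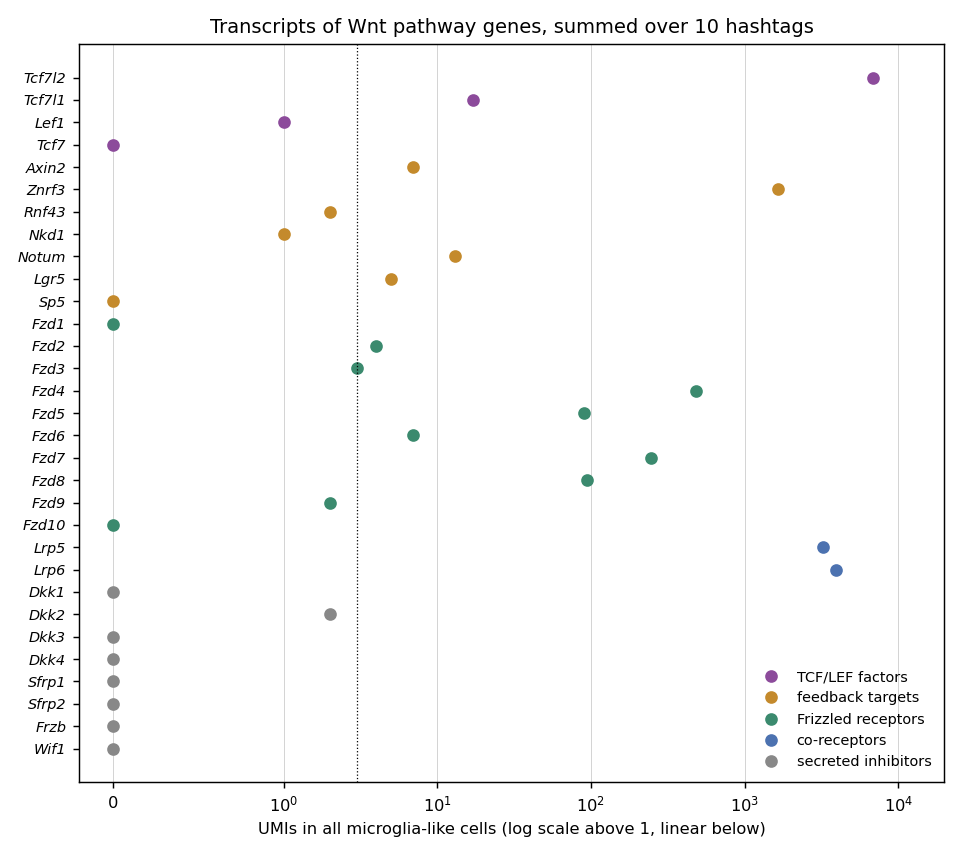
UMIs of Wnt pathway genes summed over all microglia-like cells of 10 hashtags, on an axis that is logarithmic above 1 and linear below, with colours for the roles of the genes and a dotted line at 3 UMIs, the count that a value of 0 allows. Tcf7l2 at 6821 stands beside Tcf7l1 at 17, and among the feedback targets Znrf3 at 1643 stands beside Axin2 at 7.

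Lists of 136 other pathway genes were examined in the same fit, of which 62 passed the filter on low counts and 36 had no UMI. Of these 62, 1 rose and 3 fell in TAM, against 1.64% higher and 2.86% lower of all tested genes, and 58 did not pass. The median log2 fold of the 62 was 0.0054, beside −0.00014 over all tested genes. None of the tested genes passed with edgeR or DESeq2 among 5 for ligands and their release, 6 receptors, 2 membrane inhibitors, 21 of the destruction complex and its regulators and 4 junction partners of beta-catenin, and 0 of them had an unadjusted p under 0.05. All 4 calls were lost when the fit included either the hashtag number or the immediate early level. In each of these fits 3 of the 62 genes had an unadjusted p under 0.05 (edgeR). Both covariates run along with treatment, hashtag numbers being 1 to 5 in oil and 6 to 10 in TAM. These fits therefore separate them from treatment poorly. The calls were also lost without Oil1, Oil2 and Oil3 together, where 4 of 64 genes had an unadjusted p under 0.05 (edgeR). In each of these lists the genes named here are the 2 with the highest mean level.

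Wls, which carries Wnt ligands to the cell surface, was at 199 ± 8.74 CPM in TAM and 186 ± 18.4 CPM in oil hashtags (log2 fold 0.10 ± 0.06, adjusted p = 0.394, edgeR). Porcn, the acyltransferase that lipidates Wnt ligands, had a log2 fold of −0.06 ± 0.28. Of the receptors, Ryk, an atypical Wnt receptor kinase, was at 0.02 ± 0.10 and Fzd4 at −0.07 ± 0.17. Of the membrane inhibitors, Znrf3 was at −0.13 ± 0.08 and Kremen1, a Dickkopf receptor, at 0.09 ± 0.15. The casein kinase genes Csnk1e and Csnk1a1, whose products act on Dishevelled and beta-catenin, were at −0.06 ± 0.05 and 0.05 ± 0.04. Ctnnd1 and Ctnna1, which encode the junction proteins p120-catenin and alpha-catenin, were at 0.05 ± 0.05 and 0.06 ± 0.07. None of these 10 genes passed (adjusted p = 0.394 to 0.944, edgeR).

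Of 18 tested nuclear factors 1 fell and none rose, with a median log2 fold of −0.01. Tle4 (chr19:14448150-14598051, minus strand), a Groucho corepressor like Tle3, was at 141, 142, 145, 143 and 138 CPM in TAM1 to TAM5, against 181, 174, 156, 163 and 147 CPM in Oil1 to Oil5. The treatments did not overlap, and the log2 fold was −0.21 ± 0.05 (adjusted p = 0.0352, edgeR). Tle4 missed the threshold under library size scaling (−0.17, adjusted p = 0.0754, edgeR), or when any of Oil1, Oil2, Oil4, TAM2, TAM3, TAM4 or TAM5 was left out (adjusted p = 0.0513 to 0.0939). Without the cells of cluster 1, led by immediate early genes, it was at −0.03, and it did not pass in female hashtags (−0.13) or male hashtags alone (−0.33). The coactivator genes Crebbp and Ep300, which acetylate histones at TCF targets, had log2 folds of 0.07 ± 0.04 and 0.11 ± 0.05 and did not pass (adjusted p = 0.432 and 0.190, edgeR).

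Of 6 tested genes that are Wnt targets in other tissues, 1 rose and 2 fell, with a median log2 fold of −0.01. The AP-1 gene Jun (chr4:95049034-95052222, minus strand), itself an immediate early gene, fell to 304 ± 158 CPM in TAM, against 1143 ± 495 CPM in oil hashtags (log2 fold −1.91 ± 0.32, adjusted p = 0.0047, edgeR). Jun also fell along the hashtag numbers within each treatment, from 1801 CPM in Oil1 to 524 CPM in Oil5 and from 523 CPM in TAM1 to 168 CPM in TAM5. Id2 (chr12:25093799-25097140, minus strand), whose product blocks E proteins such as that of Tcf4, fell to 27.5 ± 8.46 CPM in TAM, against 54.3 ± 22.4 CPM in oil hashtags (−0.97 ± 0.25, adjusted p = 0.0378, edgeR, and 0.0756 with DESeq2). The hashtags of Id2 overlapped between treatments, with Oil5 at 26.2 CPM below TAM1 at 39.8 CPM and TAM2 at 32.1 CPM. Id2 did not pass without Oil1, Oil2, Oil3, TAM3, TAM4 or TAM5 (adjusted p = 0.0800 to 0.106, edgeR). With the level of immediate early genes in the fit Jun was at −0.23 and Id2 at 0.43, and neither passed (adjusted p = 0.701 and 0.254, edgeR). That level averages genes of the class to which Jun belongs, so this fit cannot judge the difference of Jun. Birc5 (chr11:117849251-117855743, plus strand), which encodes the mitotic protein survivin, rose to 7.08 ± 4.05 CPM in TAM, against 1.35 ± 0.997 CPM in oil hashtags (2.45 ± 0.49, adjusted p = 0.0099, edgeR). Its hashtags overlapped between treatments, at 2.12 to 13.3 CPM in TAM and 0.450 to 2.82 CPM in oil. The cluster led by the division genes Mki67 and Top2a held 108 TAM and 16 oil cells, and its part in the value of Birc5 was not tested. Birc5 missed the threshold when cluster 1 was left out (1.69, adjusted p = 0.0923, edgeR). Ccnd1, the cyclin D1 gene, was at 0.04 ± 0.09 and Ppard, a nuclear receptor gene, at −0.07 ± 0.06, and neither passed. In the list of 6 E and Id proteins, of which 3 were tested, Tcf12 was at 0.0042 ± 0.04 and Tcf3 at 0.04 ± 0.09, and Id2 alone passed.

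The level of Tcf7l2 varied between cell clusters as well as between treatments. Values by cluster are UMIs per 1000000 UMIs of the cluster, given within each treatment and over hashtags with at least 20 cells in the cluster, as a description, since the cells were clustered on their own genes. Among the microglia-like clusters, cluster 2 is the largest, with 2774 cells led by Nrxn3 and Thsd4, and cluster 0 is led by Lmo7 and Gadd45a, cluster 1 by Fos and Egr1, cluster 4 by Spp1, Lgals3 and Lpl, cluster 5 by Mki67 and Top2a and cluster 7 by the interferon gene Ifit3. From high to low in TAM hashtags, Tcf7l2 was at 226 ± 11.3 in cluster 2 (SD, n = 5), 211 ± 46.8 in cluster 7 (n = 3) and 184 ± 3.74 in cluster 1 (n = 2). It was at 162 ± 5.26 in cluster 0 (n = 5), 136 ± 33.8 in cluster 4 (n = 5) and 127 ± 10.4 in cluster 5 (n = 3). In oil hashtags it was at 176 ± 8.82 in cluster 2, 164 ± 12.4 in cluster 1, 130 ± 12.7 in cluster 0 and 97.3 ± 39.4 in cluster 4 (n = 5 each), and no oil hashtag had 20 cells in clusters 5 or 7. In both treatments the hashtags of neighbours in this order overlapped, except between clusters 1 and 0. Clusters 3 and 6 were left unnamed. In cluster 3, with a median of 1499.5 UMIs per cell, Tcf7l2 was at 421 ± 142 in TAM (n = 5) and 332 ± 71.4 in oil hashtags (n = 4), and cluster 6, led by MHC class II genes, held 52 cells.

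Clusters 2, 0 and 4 had at least 20 cells in every hashtag, and in clusters 2 and 0 Tcf7l2 was higher in each TAM hashtag than in any oil hashtag. In cluster 2 it was at 224, 242, 234, 216 and 216 in TAM1 to TAM5, against 179, 190, 166, 174 and 172 in Oil1 to Oil5. In cluster 0 it was at 157, 168, 164, 156 and 166 in TAM1 to TAM5, against 134, 124, 111, 144 and 136 in Oil1 to Oil5. The treatments overlapped in cluster 1 (181 and 187 in the 2 TAM hashtags with at least 20 cells there, and 153 to 184 in oil hashtags), in cluster 4 (103 to 187 in TAM and 64.4 to 147 in oil hashtags) and in cluster 3 (268 to 561 in TAM and 251 to 407 in oil hashtags). In counts summed over clusters, a change in the makeup of the cells and a change of RNA per cell cannot be told apart. The pooled makeup did differ: cluster 2 held 1906 TAM and 868 oil cells, and cluster 1 held 210 TAM and 1689 oil cells. By hashtag, cluster 1 held 74.8%, 61.5%, 48.6%, 32.9% and 14.8% of the microglia-like cells in Oil1 to Oil5. In TAM1 to TAM5 it held 17.6%, 7.81%, 0.886%, 0.661% and 0.683%, so Oil5 lay below TAM1. The log2 fold of Tcf7l2 was 0.37 in cluster 2 alone and 0.39 without cluster 1.

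**Figure D4:**
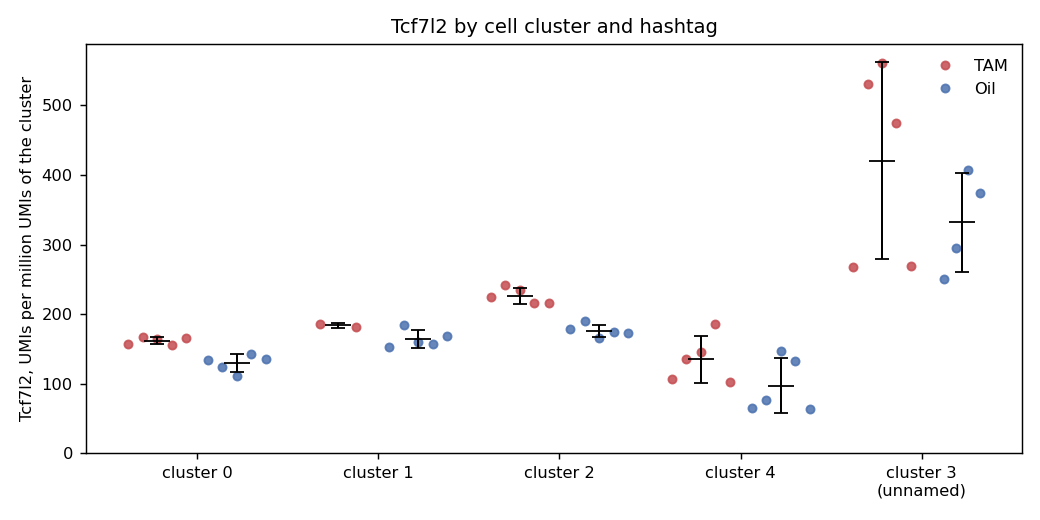
Tcf7l2 in 5 cell clusters, in UMIs per 1000000 UMIs of the cluster, with 1 point per hashtag that had at least 20 cells there and the mean and SD in black (TAM left, oil right). TAM points lie above all oil points in clusters 0 and 2, and the points overlap in clusters 1, 3 and 4.

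Cluster 2 stood above cluster 0 for most members, not for Tcf7l2 alone. The share of all genes that stood higher in cluster 2 was not computed, so this may not be particular to the members. Within hashtags the ratio of cluster 2 to cluster 0 was 1.38 ± 0.10 for Tcf7l2 (SD, n = 10 hashtags), 1.34 ± 0.24 for Lrp6, 1.31 ± 0.27 for Tle3, 1.27 ± 0.14 for Tcf4 and 1.24 ± 0.06 for Gsk3b, each above 1 in 10 of 10 hashtags. Apc and Lrp5 were higher in 9 and Axin1 in 8 of 10 hashtags. Ctnnb1 went the other way, with a ratio of 0.905 ± 0.13 and a higher value in 3 of 10 hashtags. UMIs of genes over 100 kb long made up 24.9% of cluster 2, 18.9% of cluster 0 and 36.3% of cluster 3. Tcf7l2, Tcf4, Gsk3b, Lrp6, Lrp5 and Apc span 101.6 to 345.7 kb. Of the shorter members, Ctnnb1 spans 31.3 kb, while Tle3, with its ratio of 1.31, spans 46.1 kb and Axin1, with a ratio of 1.19, spans 57.1 kb.

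The same share differed between treatments, and its part in the level of Tcf7l2 was not tested. Genes over 100 kb took 22.7% to 23.4% of UMIs in TAM and 21.6% to 22.3% in oil hashtags. The nuclear RNA Malat1 was at 21786 to 24143 CPM in TAM and 24640 to 25957 CPM in oil hashtags, and mitochondrial UMIs at 0.892% to 1.02% in TAM and 0.802% to 0.912% in oil hashtags. The 1370 tested genes over 100 kb had a median log2 fold of 0.04, with quartiles of −0.03 and 0.12, and the 2753 under 10 kb a median of −0.06. Tcf7l2, at 0.29, lay above that upper quartile, while the 5 other members over 100 kb lay between −0.06 and 0.01.

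Other cell types were examined because oligodendrocytes and endothelial cells carry active Wnt signalling. Of 12 oligodendrocyte lineage markers, 10 were detected, and their summed level was 50.9 to 62.9 CPM in TAM and 52.9 to 60.9 CPM in oil hashtags. Mbp and Mag made up most of it, with 29.3 and 23.3 CPM, while Olig2 and Pdgfra had 0 UMIs and Sox10, Bcas1 and Mog had 1, 2 and 3. The endothelial markers summed to 32.8 to 42.4 CPM in TAM and 33.0 to 42.0 CPM in oil hashtags, almost all of it Pecam1, and Cldn5, Slco1a4 and Ly6c1 had 0 UMIs. The ranges of both lists overlapped between treatments.

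Sex was tested, since the choice of the genes did not use it. No member passed between female and male hashtags in the fit of treatment and sex, where 2.32% of all tested genes were called (edgeR, adjusted p below 0.05) and 1516 genes had an unadjusted p under 0.05, none of them a member. Tcf7l2 was at 175 ± 20.6 CPM in 6 female and 177 ± 20.9 CPM in 4 male hashtags, a log2 difference of −0.02 ± 0.05 (adjusted p = 0.910, edgeR). The 9 members lay between −0.06 and 0.07, with a lowest adjusted p of 0.611 (edgeR).

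The log2 fold of Tcf7l2, TAM over oil, was 0.31 ± 0.06 in female and 0.26 ± 0.07 in male hashtags. The difference between these of 0.05 ± 0.10 did not pass (adjusted p = 0.980, edgeR interaction), nor did that of any member (−0.20 to 0.11, lowest adjusted p 0.919). In that test 0.0179% of all genes were called and 632 genes, none of them a member, had an unadjusted p under 0.05. With 2 and 3 hashtags per sex and treatment, this does not show that the sexes respond alike.

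The genes whose levels were most like that of Tcf7l2 over the 10 hashtags, among 3879 genes with a mean of at least 50 CPM, were Tet3, Ubash3b, Nktr, Thrap3 and Adgrl2, with Pearson correlations of 0.978, 0.970, 0.956, 0.940 and 0.931 of log2 CPM. These values share the treatment difference and the depth of each hashtag. After the treatment means were subtracted they were 0.833, 0.822, 0.683, 0.767 and 0.656. Tet3, a DNA demethylase gene, was at 158 CPM in TAM and 135 CPM in oil hashtags, and Ubash3b, a phosphatase gene, at 478 CPM in TAM and 400.4 CPM in oil hashtags. Adgrl2, an adhesion receptor gene, had the highest log2 fold of the 5, 0.35 ± 0.06. The 8 other fitted members had correlations with Tcf7l2 of −0.50 (Tcf4) to 0.55 (Axin1) over all hashtags. After the treatment means were subtracted they ran from 0.0072 (Apc) to 0.867 (Gsk3b), with the other 6 at 0.108 to 0.595, and Oil2 was the highest oil hashtag for both Gsk3b and Tcf7l2.

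Across 25 other ways of fitting the counts, Tcf7l2 was higher in TAM each time, with log2 folds of 0.26 to 0.39. Tcf7l2 was chosen for this difference and the fits share the same counts, so the common direction is no separate support. With the level of immediate early genes as a covariate Tcf7l2 was at 0.30 ± 0.08 and with the hashtag number at 0.30 ± 0.09. Both covariates run along with treatment, and the SE of the main fit was 0.04. Tcf7l2 was not among the genes called in these 2 fits, in male hashtags alone (0.26 ± 0.09) or without Oil1, Oil2 and Oil3 together. Leaving out those 3, in which immediate early RNA was highest, it was at 0.30 ± 0.06.

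**Figure D5:**
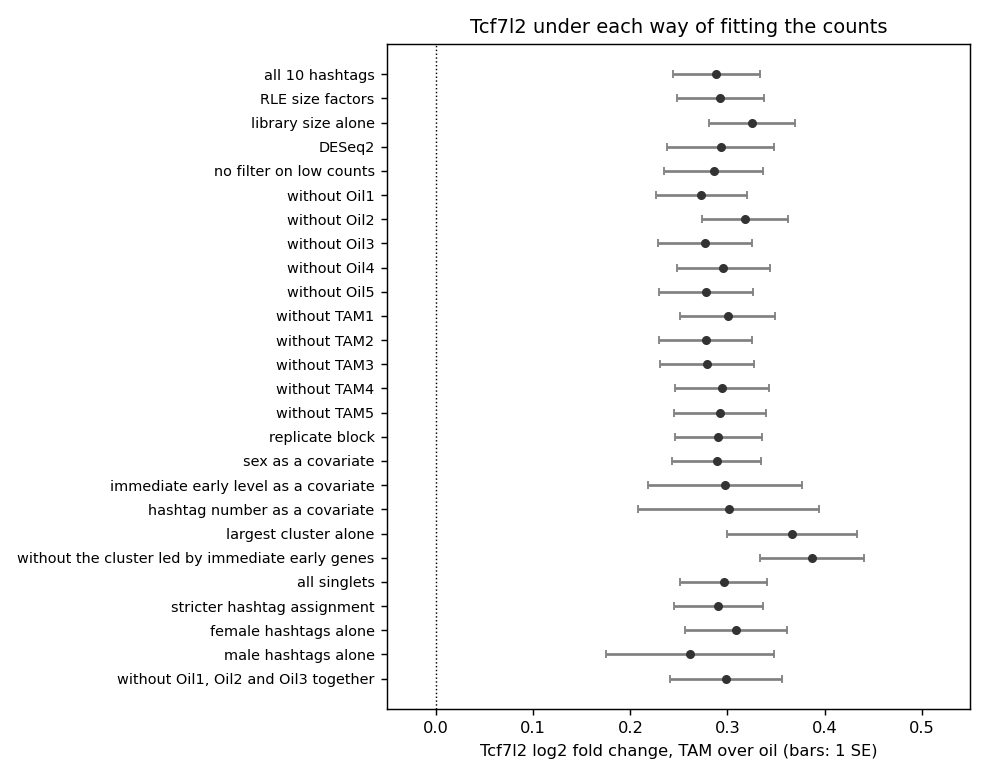
Log2 fold change of Tcf7l2, TAM over oil, with 1 SE on each side, in the fit of all 10 hashtags (top) and 25 alternatives. All points lie between 0.26 and 0.39, to the right of the dotted line at 0.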

How the data were processed

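Gene expression and hashtag libraries of 1 pool of sorted mouse microglia (Chromium 3′ v3.1 kit, Illumina NovaSeq, per the labels' protocols) shared all 9975 barcodes. The authors deposited raw UMI counts per gene and barcode, which per the file headers came from Cell Ranger 7.0.0, with mm10 as the build in the submitters' processing notes. Which annotation was used, how barcodes were chosen and whether intronic reads were counted is not given in the sources used here. The deposited counts held 51821041 gene UMIs, with a median of 4974 per barcode.

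Hashtags were assigned with HTODemux (Seurat 5.3.0, quantile 0.99), which gave 8055 singlets, 1737 barcodes with several hashtags and 183 with none. About 197 doublets of the same hashtag are to be expected among the singlets, and no doublet caller was run. Cells with under 500 genes, under 1000 UMIs or over 10% mitochondrial UMIs were left out. Leiden clusters (scanpy 1.11.5, 2000 variable genes, 30 components, resolution 0.5) were named from fixed marker lists, by rebuilt rules that may differ from those of the study. Sums of the microglia-like cells of each hashtag were fitted with edgeR 4.0.16 (TMM, filterByExpr, quasi-likelihood F test, Benjamini-Hochberg at 0.05 over all genes), which was tested on simulated data. Log2 folds are TAM over oil and their intervals are at 95%. Alternatives were RLE and library size scaling, DESeq2 1.42.0, no filter, each hashtag left out, covariates, subsets of cells and, added after seeing the data, Oil1, Oil2 and Oil3 left out together. Gene positions are from GENCODE M21.

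The members and gene lists were chosen with earlier results of these data known. Named genes are all members, the wider pathway genes that passed with up to 2 others per list of highest mean CPM, and the 5 genes most correlated with Tcf7l2. Cell types and sex were read from RNA, not from the labels.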

Additional observations from a re-analysis of the deposited data

Results flagged for a closer look

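In 58 groups of 5 hashtags (29 genes in 2 treatments), 3 groups held a hashtag that stood far from the other 4 relative to the range of its group, and chance gives about 1 in 20. Gsk3b in Oil2 was at 271 CPM, and the other oil hashtags were at 243 to 249.6 CPM. Lrp5 in TAM2 was at 94.3 CPM, the highest of the TAM hashtags. Ctnna1 in Oil1 was at 47.6 CPM, the lowest of the oil hashtags. Without Oil2 the log2 fold of Gsk3b, TAM over oil, was −0.03, and without TAM2 that of Lrp5 was −0.06.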

How the results depend on the processing

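Genes called over all tested genes (502) became 836 without a filter on low counts, 877 with sex as a covariate, 70 with the immediate early level, 38 with the hashtag number, 13 in the largest cluster alone, 201 without the immediate early cluster, 124 in male hashtags alone and 7 without Oil1, Oil2 and Oil3 together, and 252 to 664 with 1 hashtag left out. Deviations of hashtags with the same number in their names (1 to 5) had correlations of 0.333, 0.168, 0.056, 0.130 and 0.119, all above 0. Of the 10 hashtags, 5 correlated best with their own number, and same-numbered hashtags were called the same sex. With these name numbers as a block 873 genes were called. Whether the numbers pair the hashtags is not settled by these values. The wider pathway count (4) became 0 with the immediate early level, 0 with the hashtag number, 1 in the largest cluster, 1 without the immediate early cluster, 2 in male hashtags and 0 without Oil1 to Oil3, and 2 to 4 with 1 hashtag left out. Under the 3 settings with 0, edgeR gave 3, 3 and 4 of these genes an unadjusted p under 0.05. With 1 hashtag left out the log2 folds ranged from 0.27 to 0.32 for Tcf7l2, −0.05 to −0.03 for Tcf4, −0.07 to −0.01 for Ctnnb1, −0.05 to −0.01 for Apc, 0.05 to 0.15 for Axin1, −0.07 to −0.03 for Gsk3b, −0.06 to 0.0044 for Lrp5, −0.0043 to 0.04 for Lrp6 and 0.05 to 0.13 for Tle3. In the largest cluster Tcf7l2 was at 0.37 and Apc at 0.027. Without the immediate early cluster Tcf7l2 was at 0.39, Tcf4 at 0.027, Apc at 0.025, Gsk3b at 0.0042 and Lrp6 at 0.086. With the immediate early level Tcf4 was at −0.013, Ctnnb1 at −0.16, Apc at 0.036 and Id2 at 0.43, and with the hashtag number Tcf4 was at −0.00088, Ctnnb1 at −0.18, Apc at 0.045, Tle3 at −0.062, Id2 at 0.77 and Jun at 0.24. With library size alone Tcf4 was at −0.0081. In male hashtags Apc was at −0.079, Gsk3b at −0.12 and Tle3 at 0.22, and without Oil1 to Oil3 Apc was at 0.025. The count of genes that differed between sexes (259) became 623 without the filter, 12 with the immediate early level and 125 to 346 with 1 hashtag left out, that of the interaction (2) 0 to 6, and members called stayed at 0 in both. The sex difference of Tcf7l2 ranged from −0.047 to 0.018 and its interaction from −0.036 to 0.13. At resolution 1.0 the clusters sharing most cells with clusters 2 and 0 (1267 of 2774 and 1346 of 2162 cells) had a Tcf7l2 ratio of 1.58 with the hashtags pooled, against 1.42 for clusters 2 and 0 themselves, a comparison of partly other cells. The causes were not tested. Depth limits Axin2 and the genes with few UMIs.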
